A study of Homo sapiens with 6 samples.

Results

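The genes examined, 10 in number, encode chemokines and cytokines known as targets of the transcription factor NF-κB: CXCL1, CXCL2, CXCL3, CXCL5, CXCL8, IL6, IL1A, IL1B, CCL20 and LIF. They were matched by symbol in a deposited expression table of 27381 genes, and all 10 were found. RNA came from DU145 cells, a human metastatic castration-resistant prostate cancer line, in 6 libraries, 2 each from cells given a scrambled sgRNA (Scr), cells with CD24 knocked out (CD24 KO) and cells with RCC2 knocked out (RCC2 KO). All of these cells had received Cas9 with an sgRNA and were sorted for green fluorescence and grown as clones, and the labels do not say whether the libraries of a condition came from 1 clone or more. The table gives FPKM, sequenced fragments scaled by transcript length and by library size, as 1 value for each gene in each condition. The RCC2 KO column may hold 1 library or both. Because the columns do not separate the libraries, no spread between libraries and no test could be computed, and no difference below has a replicate check.

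NF-κB is a family of dimers that IκB proteins hold in the cytoplasm. Signals from receptors such as those for IL-1 and tumor necrosis factor activate the IκB kinase (IKK), the IκB is degraded, and the dimer enters the nucleus and binds short κB sites in promoters. The chemokines CXCL1, CXCL2, CXCL3, CXCL5 and CXCL8 attract neutrophils through the receptor CXCR2, and CCL20 attracts lymphocytes and dendritic cells through CCR6. IL-6 and LIF signal through receptors that share the subunit gp130, encoded by IL6ST, to the transcription factor STAT3. In carcinoma cells these secreted proteins are known for their part in inflammation and the recruitment of immune cells.

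The labels were checked first by the RNA of the knocked-out genes. CD24 had 93.2 FPKM in Scr against 309 in the CD24 KO column and 214 in the RCC2 KO column. RCC2 had 37.8, 14.2 and 41.8 FPKM in the same order. Neither value lay below Scr in the column of its own knockout. The table places CD24 on chromosome Y, from 21034387 to 21438350, while RefSeq GRCh38.p14 places the gene on chromosome 6, so the value listed for CD24 may not measure the targeted locus. An edited gene can still give RNA, and the study's methods describe a check of the knockout clones by sequencing of genomic DNA and by Western blot. The RNA values thus do not bear out the labels, each direction below depends on those labels, and CD24 KO and RCC2 KO stand for the libraries labelled so. The authors' FPKM summed to 451272 in Scr, 388764 in CD24 KO and 447005 in RCC2 KO, and the depth behind them is unknown. CD24 KO thus had the lowest sum, and the FPKM were compared without further scaling. In RNA from whole cultures, fewer cells that express a gene and less RNA per cell cannot be told apart.

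The promoters are shown first because they carry a feature that 7 of the genes share. RefSeq promoter windows (GRCh38.p14), which run from 250 bases before to 50 bases after the start site, were found for 9 of the 10 genes, all but LIF, and IL1A had 2 windows. The stretches printed here run from 120 to 41 bases before the start site, 5′ to 3′ on the strand of the gene. Their positions are chr4:73869273-73869352 on the plus strand for CXCL1, chr4:74099236-74099315 on the minus strand for CXCL2, chr4:74038730-74038809 on the minus strand for CXCL3 and chr4:73998718-73998797 on the minus strand for CXCL5. The others are chr4:73740449-73740528 on the plus strand for CXCL8, chr7:22727080-22727159 on the plus strand for IL6 and chr2:227813722-227813801 on the plus strand for CCL20. Capitals mark the bases of a match, on either strand, to the κB consensus of 10 bases or to its symmetric core GGAANTTCC, which overlap each other in CXCL1, CXCL2, CXCL3 and CXCL5.
CXCL1: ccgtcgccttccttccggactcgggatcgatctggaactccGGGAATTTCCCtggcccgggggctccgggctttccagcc
CXCL2: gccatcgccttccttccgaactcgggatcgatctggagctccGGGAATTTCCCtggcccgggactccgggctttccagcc
CXCL3: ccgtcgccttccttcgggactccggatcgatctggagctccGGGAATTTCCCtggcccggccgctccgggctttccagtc
CXCL5: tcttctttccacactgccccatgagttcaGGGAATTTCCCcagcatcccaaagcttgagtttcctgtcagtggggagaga
CXCL8: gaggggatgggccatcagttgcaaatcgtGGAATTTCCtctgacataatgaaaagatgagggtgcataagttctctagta
IL6: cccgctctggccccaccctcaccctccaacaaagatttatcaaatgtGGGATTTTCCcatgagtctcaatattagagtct
CCL20: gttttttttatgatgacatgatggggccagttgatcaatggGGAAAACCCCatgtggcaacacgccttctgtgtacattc

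The κB consensus was found in the windows of 6 genes (CXCL1, CXCL2, CXCL3, CXCL5, IL6 and CCL20), and 11.3% of all 35116 promoter windows of the same length hold it. The core GGAANTTCC was found in all 5 genes for CXCR2 ligands, against 0.965% of all windows. The 10 genes were listed as known NF-κB targets, so κB matches above these shares can come from that choice and test nothing. In CXCL8 the core matched and the consensus did not. The matches lay close together in position, with the consensus beginning 79 bases before the start site in CXCL1 and CXCL3, 78 bases in CXCL2, 91 bases in CXCL5 and 73 bases in IL6. In CCL20 the consensus lay on the opposite strand, from 79 bases before the start site. The stretches of CXCL1 and CXCL3 were the same at 74 of 80 bases when compared position by position. That of CXCL2 was the same as that of CXCL1 at 43 of 80 bases in this comparison, which allows no shift. Its printed letters largely repeat those of CXCL1 and CXCL3, shifted along the stretch. The matches of CXCL1, CXCL2 and CXCL3 are thus not independent of each other. TGANTCA, the letters of an AP-1 site, was found in CXCL8 and IL1A, against 7.71% of all windows. TTGCNNAA, the letters of a C/EBP site, was found in CXCL2, IL1B and IL6, against 10.5%. Both strands were searched for each motif, a match is a description of letters and not of binding, and the search says nothing of sites outside these windows.

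**Figure D1:**
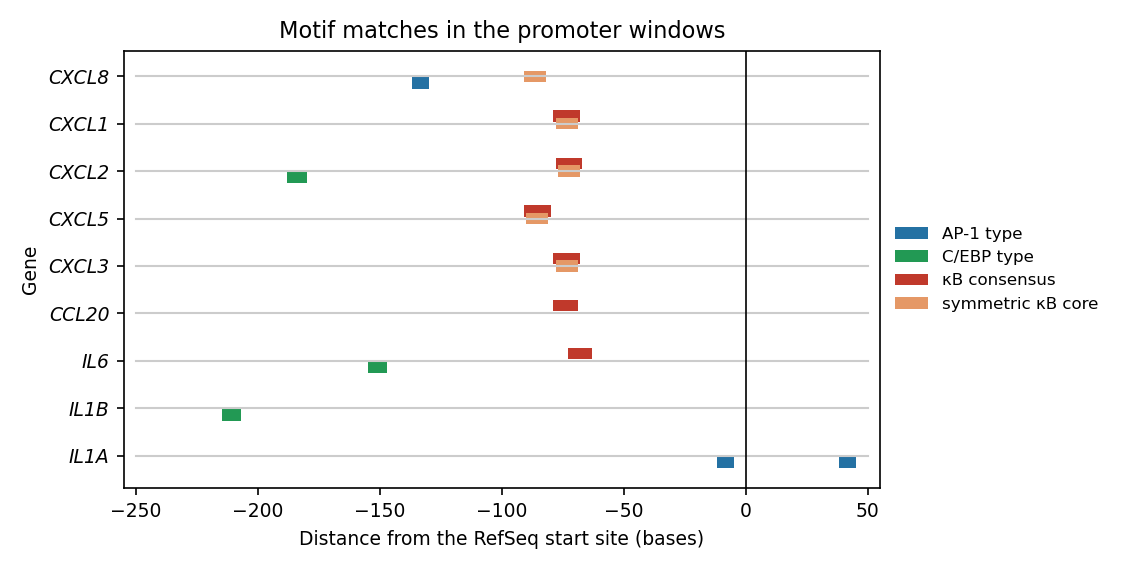
Motif matches in the RefSeq promoter windows of 9 genes, with distance from the start site in bases on the x axis and colored bars for each motif; 1 of the 2 IL1A windows is drawn. The κB matches of 7 genes lie between 91 and 64 bases before the start site.

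CXCL8, the chemokine also known as interleukin 8, had the highest level of the 10 genes in every column, at 141 FPKM in Scr against 70.4 in CD24 KO and 119 in RCC2 KO. It was above 97.3% of the genes with a value above 0 in Scr. CCL20 was at 33.4 FPKM and CXCL1 at 32.6 FPKM in Scr, followed by LIF at 18.3 FPKM, CXCL2 at 17.4 FPKM and IL6 at 11.9 FPKM. CXCL5 and CXCL3 were lower, at 4.77 and 3.59 FPKM in Scr. IL1B and IL1A, which encode the 2 IL-1 ligands, were under 1 FPKM in every column. Without a spread between libraries it cannot be said which neighbors in this order differ. The order of the genes in RCC2 KO differed from Scr only in that CXCL2 stood above LIF and CXCL3 above CXCL5. IL6 stood sixth in Scr and RCC2 KO and second in CD24 KO, above CCL20, and LIF stood above CXCL1 there.

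Summed over the 5 CXCR2 ligands, the level was 199.8 FPKM in Scr against 101.6 in CD24 KO and 171.3 in RCC2 KO. CXCL8 took 70.8%, 69.3% and 69.6% of these sums, so its share was nearly the same in the 3 columns. Of the sum over all 10 genes, IL6 took 4.51% in Scr, 24.2% in CD24 KO and 4.98% in RCC2 KO. The level of CXCL8 was 11.9 times that of IL6 in Scr and 1.52 times that of IL6 in CD24 KO.

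**Figure D2:**
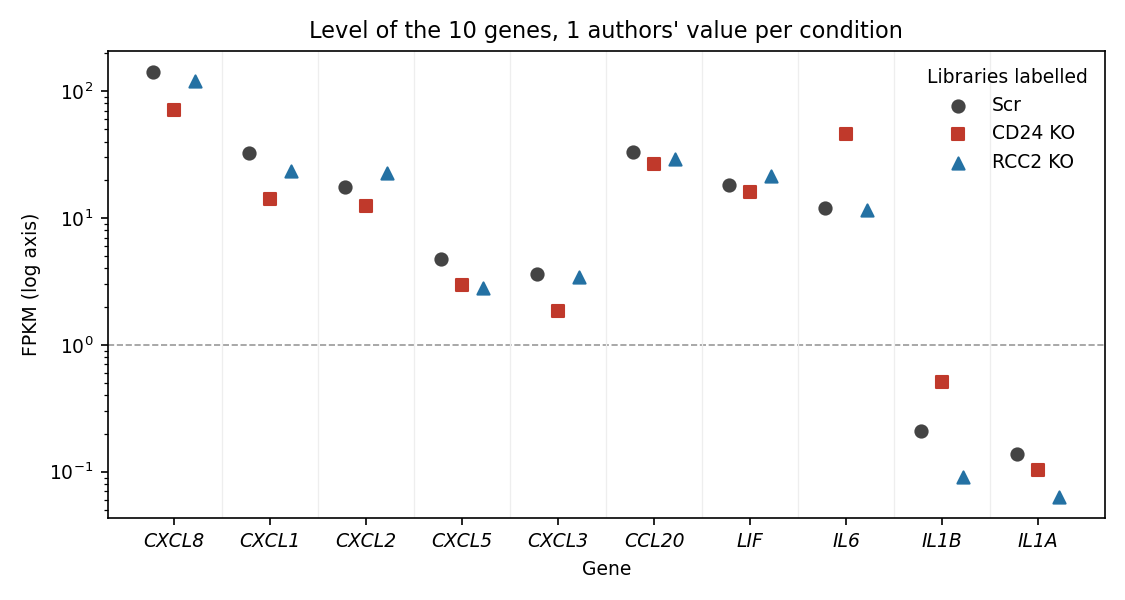
Level of the 10 genes in FPKM on a log axis, with 1 value per condition and a dashed line at 1 FPKM. The RCC2 KO values may hold 1 library or both. IL6 is at 46.3 FPKM in the libraries labelled CD24 KO, above Scr and RCC2 KO, while all 5 CXCR2 ligands are below Scr there.

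Genes with at least 1 FPKM in at least 1 column were compared between conditions, 12822 of the 27381 genes in the table. Of the 10 genes, 8 passed, and IL1A and IL1B did not. A change is a difference of log2(FPKM + 1), which understates the change of genes with low values, and a gene was counted when it differed at least 2-fold on this scale.

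The comparison of CD24 KO with Scr asks which RNAs differ when CD24, a surface glycoprotein, is targeted. In the libraries labelled CD24 KO, 7 of the 8 genes were lower than in Scr and IL6 was higher. IL6 was at 11.9 FPKM in Scr and 46.3 FPKM in CD24 KO, a ratio of 3.89. Its log2 change of 1.87 was the 44th highest of the 12822 genes compared. CXCL1 was at 32.6 FPKM in Scr and 14.1 FPKM in CD24 KO, a ratio of 0.431 and a log2 change of -1.16. These 2 of 8 genes were at least 2-fold changed, against 5.69% of all genes compared (2.67% higher and 3.03% lower).

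CXCL8 lay just outside the minimum, with 141 FPKM in Scr against 70.4 in CD24 KO and a log2 change of -0.997. Its change was lower than that of all but 3.0% of the genes compared. CXCL3 was at 1.84 FPKM in CD24 KO with a log2 change of -0.69, CXCL5 at 2.95 FPKM with one of -0.55 and CXCL2 at 12.4 FPKM with one of -0.46. All 5 CXCR2 ligands thus lay below Scr, and their median log2 change was -0.69. CCL20, at 26.8 FPKM, and LIF, at 15.9 FPKM, were nearest to Scr, with log2 changes of -0.31 and -0.19. With quantile normalization, which gives the columns the same distribution of values, CCL20 was at -0.18 and LIF at -0.1. The median over the 8 genes was -0.51, against -0.03 over all genes compared, and without IL6 the remaining 7 genes had a median of -0.55. IL1B was at 0.209 FPKM in Scr and 0.505 FPKM in CD24 KO, and IL1A at 0.137 and 0.103 FPKM, too low for a comparison.

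The table places IL6 on chromosome 7 from 22765014 to 22771621 in coordinates read as hg19, and gives the same span to a second gene, LOC541472. That gene was at 1.43 FPKM in Scr against 0.649 in CD24 KO and 1.496 in RCC2 KO. IL6 was at 11.9, 46.3 and 11.6 FPKM in the same order. The value of LOC541472 was thus lowest where that of IL6 was highest, and small beside it in every column. The library kit, TruSeq Stranded mRNA, keeps the strand of the RNA, but whether the authors' estimation used it is not given in the sources used here. Fragments in the shared span could have been given to either gene, and how they were divided was not tested. No other gene in the table overlapped any of the 10. IL1A and IL1B were placed on chromosome 2 from 113531492 to 113542975 and from 113587337 to 113594356, CCL20 on the same chromosome from 228678558 to 228682280 and LIF on chromosome 22 from 30636436 to 30642840.

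The 5 CXCR2 ligand genes examined lie in a cluster on chromosome 4, between 74606223 and 74964997, a stretch of 359 kb. CXCL1, CXCL2 and CXCL3 have similar transcripts, and the longest coding transcripts in GENCODE 29 share exact runs of up to 97 bases, the run between CXCL2 and CXCL3. Of the windows of 50 bases in a transcript, 5.73% of CXCL1, 9.24% of CXCL2 and 5.26% of CXCL3 were found in another of these 5 genes or in CXCL6, and none of CXCL5 or CXCL8. The reads described in the study's methods are longer than these windows and than the longest shared run. Whether the shared runs affected the values of the first 3 genes was not tested. Among 10 neighbors listed, of which CXCL6, PF4V1, PF4 and PPBP lie inside this stretch, 4 were compared, with a median log2 change of -0.29 in CD24 KO. None was at least 2-fold changed there, against 5.69% of all genes compared. The 4 were chosen for mention after their values were seen. AREG, EREG and BTC encode ligands of the EGF receptor, and MTHFD2L encodes a mitochondrial enzyme of folate metabolism. AREG was at 1.78 FPKM in Scr, 0.737 in CD24 KO and 1.59 in RCC2 KO, with a log2 change of -0.68 in CD24 KO. MTHFD2L had 2.497 FPKM in Scr, 1.46 in CD24 KO and 2.204 in RCC2 KO, and a log2 change of -0.51. EREG was at 69.9, 66.1 and 69.6 FPKM, with a log2 change of -0.08. BTC was at 2.35, 3.24 and 4.32 FPKM, with a log2 change of 0.34. The neighbors thus went both ways in CD24 KO, and the low values of AREG, MTHFD2L and BTC are the less certain ones.

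RCC2 is a regulator of chromosome condensation, and its knockout was compared with Scr in the same way. In the libraries labelled RCC2 KO the log2 changes of the 8 genes lay between -0.61 and 0.35, and none was at least 2-fold changed, against 1.2% of all genes compared (0.406% higher and 0.796% lower). IL6 was at 11.6 FPKM, beside 11.9 FPKM in Scr, a log2 change of -0.03. Of the CXCR2 ligands, CXCL5 had the largest difference, with 2.79 FPKM against 4.77 in Scr and a log2 change of -0.61. CXCL1 was at 23.4 FPKM with a log2 change of -0.46 and CXCL8 at 119 FPKM with one of -0.24. CXCL2 was higher than in Scr, at 22.4 FPKM, with a log2 change of 0.35, and CXCL3 was at 3.45 FPKM with a log2 change of -0.04. The CXCR2 ligands therefore did not share a direction here as they did in CD24 KO. LIF was at 21.5 FPKM with a log2 change of 0.22 and CCL20 at 28.9 FPKM with one of -0.20. IL1A and IL1B were at 0.0636 and 0.0912 FPKM. The median over the 8 genes was -0.12. Both knockouts were compared with the same Scr values.

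The direct comparison of RCC2 KO with CD24 KO leaves the Scr values out. IL6 was lower in RCC2 KO by a log2 difference of -1.90 and was the only 1 of the 8 genes past the 2-fold minimum, against 8.31% of all genes compared (4.02% higher and 4.3% lower). It had the 56th lowest difference of the 12822 genes. CXCL2, CXCL8, CXCL1 and CXCL3 were higher in RCC2 KO, with log2 differences of 0.81, 0.75, 0.70 and 0.65. CXCL5 stood apart from these, at 2.95 FPKM in CD24 KO beside 2.79 in RCC2 KO, a log2 difference of -0.06 that turned to 0.12 with quantile normalization. LIF was at 0.41 and CCL20 at 0.11, the latter at -0.02 with quantile normalization. The median over the 8 genes was 0.53.

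**Figure D3:**
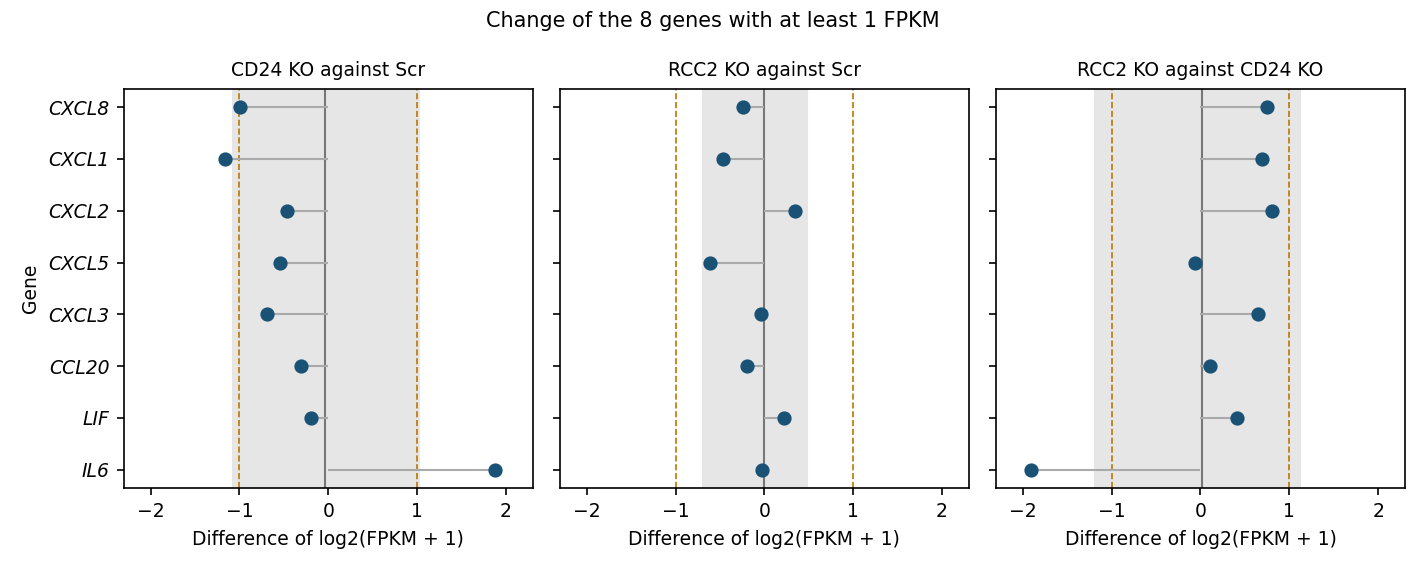
Difference of log2(FPKM + 1) for the 8 genes compared, in 3 comparisons. The grey band holds the central 95% of all 12822 genes, the grey line marks their median and dashed lines mark 2-fold; IL6 and CXCL1 lie outside the band in CD24 KO against Scr, and all 8 genes lie inside it in RCC2 KO against Scr.

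Lists of receptors, NF-κB subunits, inhibitors, kinases, other cytokines, other targets, AU-rich element binding proteins and STAT3 pathway genes hold 114 genes in all, of which 92 were compared. In CD24 KO 3 of the 92 were at least 2-fold higher and 5 lower, against 2.67% and 3.03% of all genes compared. In RCC2 KO 0 were past the minimum, against 1.2%. CXCR1 and CXCR2, the receptors of CXCL8 and its relatives, were listed at 0 in every column, and CCR6, the receptor of CCL20, was listed at 0 in Scr and CD24 KO and was at 0.0567 FPKM in RCC2 KO. IL6ST, the shared gp130 subunit, was at 36.4 FPKM in Scr against 32.6 in CD24 KO and 38.9 in RCC2 KO. IL6R, which encodes the chain that binds IL-6, was at 7.36, 3.51 and 7.78 FPKM, with a log2 change of -0.89 in CD24 KO, where IL6 itself was highest. LIFR was at 9.504, 10.1 and 9.28 FPKM. A value of 0 is not read as absence here, since the depth is unknown and 31.9% of the genes in the table are at 0 in every column.

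IL1R1, the signaling receptor of IL-1, was at 9.43, 8.06 and 10.2 FPKM in Scr, CD24 KO and RCC2 KO. Its accessory chain IL1RAP was at 18.7, 8.03 and 16.1 FPKM, with a log2 change of -1.13 in CD24 KO. IL1RAP was the only 1 of the 5 compared genes of the receptor list to pass the minimum in CD24 KO, against 5.69% of all genes. None passed in RCC2 KO, against 1.2%. IL1R2, IL1RN and ACKR1, a decoy, an antagonist and a scavenger receptor, were under 1 FPKM in every column.

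None of the 5 NF-κB subunit genes was at least 2-fold changed in any comparison. Over all genes compared, the shares changed were 5.69% in CD24 KO, 1.2% in RCC2 KO and 8.31% between the knockouts. RELA, which encodes the main activating subunit p65, was at 75.2 FPKM in Scr against 74.6 in CD24 KO and 67.6 in RCC2 KO. NFKB1, the gene of its usual partner p50, was at 31.6, 18.6 and 32.4 FPKM, with the largest log2 change of the list in CD24 KO, -0.73. NFKB2 was at 40.2, 33.5 and 32.8 FPKM, RELB at 8.40, 7.36 and 9.03 FPKM, and REL at 8.08, 10.2 and 8.65 FPKM. In CD24 KO the RNA of RELA was nearly level and that of NFKB1 was lower, while CXCL8 and IL6 differed in opposite directions. The part of the subunits in these differences was not tested.

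Among 11 genes for IκB proteins and feedback inhibitors, all 11 were compared. None passed the minimum in CD24 KO or RCC2 KO, against 5.69% and 1.2% of all genes compared. NFKBIA, the gene of IκBα and itself an NF-κB target, was at 346 FPKM in Scr against 265 in CD24 KO and 308 in RCC2 KO. TNFAIP3, which encodes the deubiquitinase A20, was at 10.1, 16.0 and 11.8 FPKM, with a log2 change of 0.62 in CD24 KO. The list went both ways in CD24 KO, with 5 genes above and 6 below 0 and a median of -0.08.

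Of 18 genes for IKK subunits and adaptors, 1 was at least 2-fold lower in CD24 KO, against 3.03% of all genes compared. None was changed in RCC2 KO, against 1.2%. MAP3K14, the gene of the kinase NIK that drives the noncanonical pathway through NFKB2, was at 23.0 FPKM in Scr against 8.40 in CD24 KO and 21.8 in RCC2 KO, which gave CD24 KO a log2 change of -1.35. IRAK1, a kinase of the IL-1 receptor pathway, was at 51.0, 30.4 and 70.3 FPKM. Between the knockouts MAP3K14 and IRAK1 passed the minimum, both higher in RCC2 KO, with log2 differences of 1.28 and 1.18. The share of all genes compared that was higher there was 4.02%.

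Other secreted cytokines also went past the minimum on both sides in CD24 KO. Of 20 genes listed, 10 were compared, and 1 was higher and 1 lower, against 2.67% and 3.03% of all genes compared. CCL5, which attracts T cells and monocytes, was at 4.95 FPKM in Scr against 22.0 in CD24 KO and 2.68 in RCC2 KO, which gave CD24 KO a log2 change of 1.95. CSF2, the gene of the growth factor GM-CSF, was at 5.95 FPKM in Scr against 0.328 in CD24 KO and 9.20 in RCC2 KO, which gave CD24 KO a log2 change of -2.39. None of the 10 genes passed the minimum in RCC2 KO, against 1.2% of all genes compared. Between the knockouts CSF2 was higher in RCC2 KO and CCL5 lower, with log2 differences of 2.94 and -2.64. The shares of all genes compared were 4.02% higher and 4.3% lower there. TNF and LTB, chosen for mention after their values were seen, were listed at 0 in every column. They lie in the MHC region of chromosome 6, where 121 of 193 genes were at 0 in every column, among them VARS, a tRNA synthetase gene that every cell uses. Nothing is read from these listings.

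Among 30 other NF-κB target genes, 25 were compared. In CD24 KO 2 were at least 2-fold higher and 1 lower, against 2.67% and 3.03% of all genes compared. In RCC2 KO none was changed, against 1.2%. SAT1, the rate-limiting enzyme of polyamine breakdown, was at 168 FPKM in Scr against 493 in CD24 KO and 127 in RCC2 KO. CEBPB, a transcription factor that also acts on the IL6 promoter, was at 6.33, 14.6 and 6.85 FPKM, a log2 change of 1.09 in CD24 KO. PLAUR, the urokinase receptor, was at 45.9, 20.2 and 34.3 FPKM, a log2 change of -1.15. SOD2, the mitochondrial superoxide dismutase, was at 134, 262 and 102 FPKM, with a log2 change of 0.96 in CD24 KO and a log2 difference of -1.36 between the knockouts. SAT1 had a log2 difference of -1.95 between the knockouts. SAT1 and SOD2 alone of the list passed the minimum there, against 4.3% of all genes lower. The median of the list was 0.24 in CD24 KO and -0.05 in RCC2 KO, so in CD24 KO it lay on the other side of 0 from the median of the 8 chemokine and cytokine genes.

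**Figure D4:**
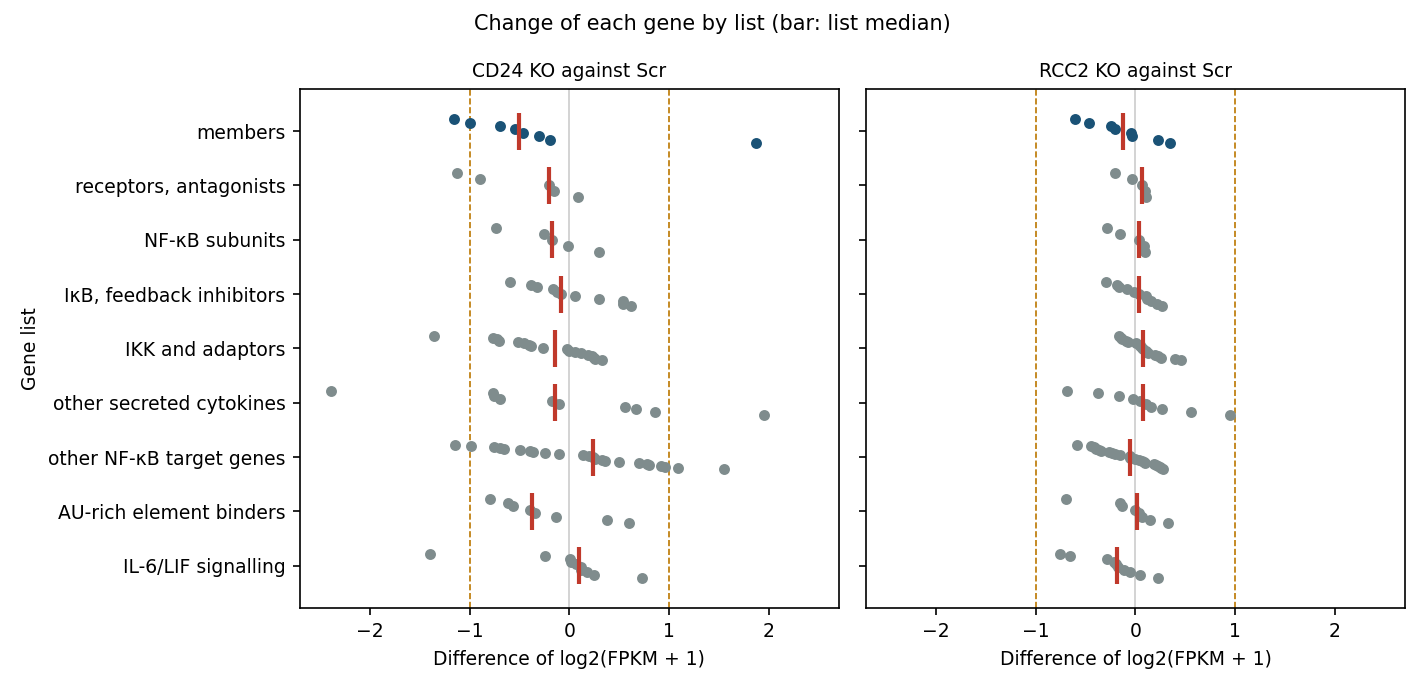
Difference of log2(FPKM + 1) of each compared gene, by list, in each knockout against the same Scr values. Red bars mark list medians and dashed lines 2-fold; the medians of the 8 chemokine and cytokine genes are -0.51 in CD24 KO and -0.12 in RCC2 KO, and members of the other lists lie on both sides of 0.

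Many cytokine mRNAs hold AU-rich elements, which bind proteins that shorten or lengthen the life of the mRNA. TTATTTATT, the letters of such an element, was found in the longest coding GENCODE 29 transcript of 6 of the 10 genes (CXCL1, CXCL2, CXCL3, CXCL8, IL1B and LIF), against 4.94% of 11954 coding genes whose longest transcript lies in the same range of length, 839 to 3969 bases. CXCL2 held 5 matches, some of which overlap, and IL6 held none, although it held 6 copies of the shorter ATTTA. One strand, that of the mRNA, was searched over the whole transcript. The 10 genes were chosen as chemokines and cytokines, so a share above 4.94% can come from that choice and tests nothing. CXCL1, CXCL2 and CXCL3 have transcripts with shared runs, so their matches may not be independent of each other. Among 8 genes for proteins that bind these elements, none was at least 2-fold changed in CD24 KO or RCC2 KO. The shares of all genes compared were 5.69% and 1.2%. ZFP36, which encodes the destabilizing protein tristetraprolin, was at 50.9 FPKM in Scr against 46.4 in CD24 KO and 31.0 in RCC2 KO. ZC3H12A, the gene of the ribonuclease regnase-1 that degrades IL6 mRNA, was at 5.76, 7.80 and 5.07 FPKM.

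Genes of the pathway downstream of IL-6 and LIF lay mostly above Scr in CD24 KO and mostly below it in RCC2 KO. Of 11 genes listed, 10 were compared, 8 of them above and 2 below Scr in CD24 KO with a median log2 change of 0.09. SOCS3 alone was at least 2-fold lower there, against 3.03% of all genes compared. In RCC2 KO 2 lay above and 8 below Scr and the median was -0.18. None passed the minimum, against 1.2% of all genes compared. SOCS3, a STAT3 target that inhibits gp130 signaling, was at 14.9 FPKM in Scr against 5.03 in CD24 KO and 8.38 in RCC2 KO, log2 changes of -1.40 and -0.76. Its value was thus lowest where IL6 was highest. CISH, another inhibitor of cytokine signaling, was at 1.31, 2.84 and 0.465 FPKM, with a log2 difference of -1.39 between the knockouts. CISH alone of the list passed the minimum there, against 4.3% of all genes lower.

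The cell type was checked against its markers. The epithelial genes EPCAM, KRT8, KRT18, KRT19 and CDH1 summed to 798.7 FPKM in Scr against 499.8 in CD24 KO and 842.6 in RCC2 KO, and the leukocyte genes PTPRC and CD3E were listed at 0 in every column. Of 8 leukocyte markers 7 were under 1 FPKM in each column, and all 7 stromal and endothelial markers were, with sums of 0.681, 1.01 and 0.75 FPKM in Scr, CD24 KO and RCC2 KO. The exception was CD68, which encodes a lysosomal protein, at 37.1 FPKM in Scr against 81.5 in CD24 KO and 38.4 in RCC2 KO. The whole list summed to 38.5, 82.5 and 38.9 FPKM in the same order, highest in CD24 KO, where IL6 was also highest, and without CD68 it summed to 1.41, 1.04 and 0.526 FPKM. LYZ, the lysozyme gene, was at 0.137, 0.285 and 0.0438 FPKM. KRT8 was at 336, 149 and 348 FPKM and KRT18 at 293, 141 and 305 FPKM in Scr, CD24 KO and RCC2 KO. Both were at least 2-fold lower in CD24 KO, with log2 changes of -1.17 and -1.05, against 3.03% of all genes compared. They are given the same span on chromosome 12, and how fragments were divided between them was not tested. KRT19 went the other way, at 83.5, 113 and 107 FPKM, with a log2 change of 0.43 in CD24 KO. CDH1, the gene of E-cadherin, was at 27.9 FPKM in Scr against 52.6 in CD24 KO and 23.7 in RCC2 KO, a log2 change of 0.89 in CD24 KO. The part of these differences in the values of IL6 and the chemokines was not tested.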

How the data were processed

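RNA of 6 DU145 libraries was sequenced from libraries made with the TruSeq Stranded mRNA kit, 2 for each of Scr, CD24 KO and RCC2 KO. One FPKM table was deposited by the authors, with 1 column per condition. The submitters' processing notes name HISAT, StringTie, Cufflinks and GATK, without roles or versions. The RCC2 KO column carries the whole label of the first RCC2 KO library and may hold 1 library or both. No build is named. Of 25136 symbols found once in RefSeq GRCh38.p14, 15.4% overlapped their position there, so coordinates were read as hg19, with starts counted from 1.

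The deposited FPKM were compared as log2(FPKM + 1) over genes with at least 1 FPKM in at least 1 column, without further scaling. No test, SD or p-value is possible with 1 value per condition. The members and gene lists were chosen with earlier results of these data known, and the lists were written from memory. Genes named were all 10 members, all receptors and subunits, NFKBIA, TNFAIP3, ZFP36, ZC3H12A, SOCS3, the targeted genes and list members at least 2-fold changed in any comparison. The epithelial markers were named as fixed for the check of cell type. PTPRC, CD3E, LYZ, TNF, LTB, VARS, LOC541472 and the 4 cluster neighbors compared were named after their values were seen. The calculations were tested on simulated data. Alternatives were other pseudocounts, filters, scalings and a lower fold minimum, and the median without IL6, which was added after the data had been seen. Promoter sequences came from RefSeq GRCh38.p14 and transcripts from GENCODE 29. Python 3.11.15, NumPy 2.4.6, pandas 2.3.3 and matplotlib 3.10.9 were used.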

Additional observations from a re-analysis of the deposited data

How the results depend on the processing

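No paired analysis was possible because the table holds 1 value per gene and condition, and for the same reason no replicate could be left out. IL6 was at least 2-fold higher in CD24 KO than in Scr, and at least 2-fold lower in RCC2 KO than in CD24 KO, under every alternative that kept it. CXCL1 was below the 2-fold minimum in CD24 KO with a pseudocount of 5, at -0.98, which left 1 gene past it, and CXCL8 passed it with a pseudocount of 0.1. With a fold minimum of 1.5, 4 genes were changed in CD24 KO (against 21.1% of all genes), 1 in RCC2 KO (CXCL5, against 5.27%) and 5 between the knockouts (against 27.9%). The median in CD24 KO was -0.31 with a pseudocount of 5 and -0.38 with no filter, which adds IL1A and IL1B. Between the knockouts it was 0.32 and 0.26 under these settings. Quantile normalization moved 9 single values by at least 0.1 on the log2 scale. In CD24 KO, CXCL8 was then at -0.81 and IL6 at 2.01, and the same 2 genes were past the minimum. Between the knockouts CXCL5 turned from -0.06 to 0.12 and CCL20 from 0.11 to -0.02. Without IL6, 1 gene was past the minimum in CD24 KO and 0 between the knockouts, where the median was 0.65. A tolerance of 0.1 on the log2 scale was used: of the values of the 8 single genes under the alternatives, 122 moved by less and 22 by at least that. The 122 include settings that could hardly move a value. A change of filter cannot move a single gene, and median centring shifted all genes by less than the tolerance. A pseudocount of 0.1 moved 4 values and left 20. A pseudocount of 5 moved 9 and left 15, and so did quantile normalization. The unknown depth limits the genes with low values most, CXCL3, CXCL5 and the IL-1 ligands.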
